A study of Oryza sativa Japonica Group with 36 samples.

Results

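The genes described here are 150 of the 38026 genes in the table, chosen by their measured values as the genes that were most clearly lower late than early in both leaves of rice. They were selected on the means of log2(CPM + 1) over 3 replicates, where CPM is the read count of a gene relative to a scaled library size. For each leaf the score was the lower of the means at 4 and 12 days after heading (DAH) minus the highest of the means at 28, 36, and 44 DAH, and a gene took the smaller score of its leaves. A score above 0 was found for 2522 genes, and the 150 genes with the highest scores were kept. All values at 4, 12, 28, 36, and 44 DAH therefore describe the choice and carry no test of the decrease. The 20 DAH libraries were not used in the choice, nor was a constant difference between the leaves on the log2(CPM + 1) scale. At low levels a constant ratio of CPM between the leaves is not such a constant difference.

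The series followed the flag leaf (FL), the uppermost leaf below the panicle, and the second leaf (SL), the next leaf down, of the japonica rice cultivar Dongjin grown in a paddy field. No treatment was given, and the groups differ by leaf and by time point. In the field, leaf age and calendar date changed together over the time points and cannot be told apart. mRNA was sequenced at 6 time points, beginning at 4 DAH and ending at 44 DAH. Each of the 12 groups held 3 replicates, which made 36 libraries. Each replicate pooled the middle parts of several independent leaves, so the spread between replicates is that between pools. In whole leaf pieces, fewer cells of a type and less RNA per cell cannot be told apart.

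During grain filling, rice leaves pass from assimilation to senescence, in which chlorophyll and protein are broken down and nitrogen moves to the grain. Genes of growth, cell wall synthesis, and specialized metabolism are commonly more active in younger leaf tissue. Labdane-related diterpenoids, the family of rice phytoalexins and of gibberellin precursors, are made in steps. Plastid isoprenoid precursors come from the MEP pathway, are cyclized by a copalyl diphosphate synthase (CPS) and a kaurene synthase-like enzyme (KSL), and are oxidized by cytochrome P450 enzymes.

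The libraries held 5713546 to 29789199 reads on genes. Late SL libraries were shallower than early ones, with medians of 8435021 and 20619345 reads, while the FL medians were 15468993 late and 20349456 early. At these depths 3 reads were worth 0.106 to 0.511 CPM, a limit set by counting alone. In FL 47 of the 150 genes, and in SL 44, had at least 1 of the 9 late libraries at or under 3 reads, so the late levels of those genes are limited by depth. Summed CPM of the 2 small-subunit Rubisco genes, markers of mesophyll, was 2178 to 4476 in early FL libraries, 2362 to 4762 in late FL libraries, 2210 to 3164 in early SL libraries, and 2030 to 4216 in late SL libraries. The 10 markers of dividing cells (A- and B-type cyclins and PCNA) summed to 17.6 to 28.8 CPM in early FL libraries and 16.2 to 30.7 CPM in late ones, and no marker of these lists was among the 150. The 8 grain storage markers reached 69.2 CPM in FL and 91.4 CPM in SL at 20 DAH, against at most 11.4 CPM in any early library. The 4 sucrose transporter markers of phloem, 1 of them at 0 everywhere, summed to 275 to 288 CPM in FL and 455 to 552 CPM in SL at 20 DAH. The part of grain and phloem markers in the results at 20 DAH was not tested.

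Only 56 of the 150 genes carried a description or a name in the sources used here, and the other 94 are given by identifier alone. The table of gene names and order was NCBI RefSeq's for assembly ASM3414082v1, and 132 of the 150 matched it, of which 126 were protein coding. Genes on all 12 chromosomes were included, from 6 on chromosome 6 to 23 on chromosome 1.

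The label of a steady fall did not hold for most of the genes. The day means decreased or stayed level at every step in 15 genes in FL, in 21 genes in SL, and in 5 genes in both. The summed CPM of the 150 genes took 1.62% to 1.63% of all CPM in FL at 4 DAH and 0.684% to 0.791% at 20 DAH. Of the late FL libraries, those of 28 DAH held 0.370% to 0.402%, those of 36 DAH 0.533% to 0.591%, and those of 44 DAH 0.259% to 0.278%. In SL the shares for the same days were 1.15% to 1.26%, 0.464% to 0.570%, 0.323% to 0.362%, 0.385% to 0.460%, and 0.255% to 0.278%. Both leaves were thus high early, intermediate at 20 DAH, and lowest at 44 DAH, with higher shares at 36 DAH than at 28 DAH. The mean at 36 DAH lay above those at both 28 and 44 DAH in 108 of the genes in FL and in 96 in SL. Of the 150 genes, 52.0% had this in both leaves, against 31.1% of all 22057 genes tested. The rule used these days, so these shares are a description.

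**Figure D1:**
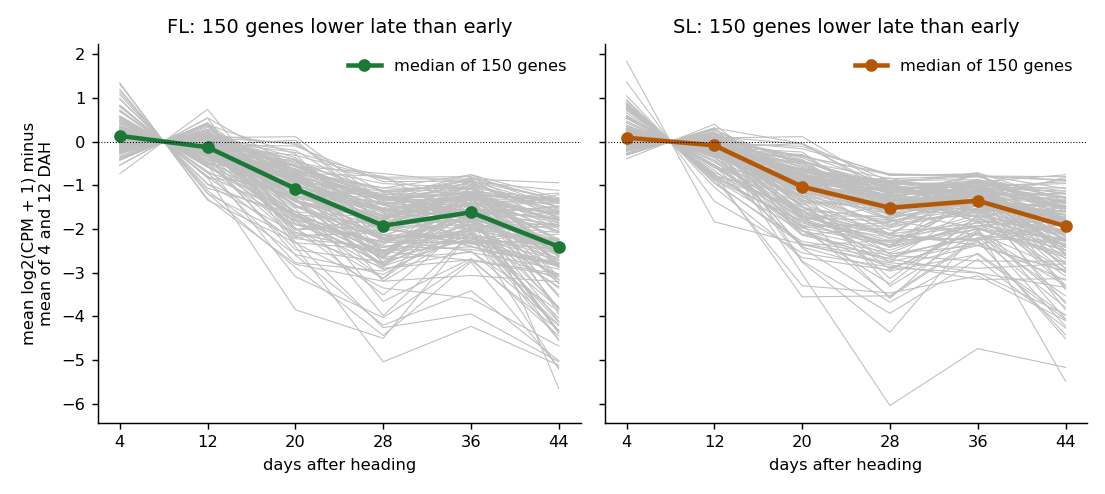
Mean log2(CPM + 1) of each of the 150 genes (grey lines) and their median (coloured line) by days after heading, relative to the mean of 4 and 12 DAH of the same leaf, in FL (left) and SL (right). The medians lie lower at 20 DAH, lower still at 28 DAH, slightly higher at 36 DAH, and lowest at 44 DAH.

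The genes spanned a wide range of levels. At 4 DAH the mean over both leaves was 1.74 CPM in the lowest gene, 24.4 CPM in the median gene, and 2550 CPM in the highest, and 30 genes were above 100 CPM. The mean of the early days was a median of 5.32 times the mean of the late days in FL, with a range of 2.08 to 54.8, and 4.14 times in SL, with a range of 1.78 to 81.0. SL had the smaller score in 96 genes and FL in 54. In both leaves, every early library was above every late library in 140 of the genes. The median scores of the leaves were 1.21 in FL and 1.02 in SL. The 3 lowest genes kept, OS04G0412500, OS05G0568800, and OS01G0802100, had scores of 0.7007, 0.6998, and 0.6989, and the next 3, OS02G0777800, OS11G0202300, and OS06G0345200, had scores of 0.6988, 0.6974, and 0.6969, so the boundary is not a gap.

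The highest score, 3.84, belonged to OS09G0537700, which has no description here. Its FL replicates were 127, 147, and 260 CPM at 4 DAH and 549, 256, and 175 CPM at 12 DAH, against 6.48, 4.75, and 5.09 CPM at 44 DAH. In SL they were 112, 53.3, and 87.9 CPM at 4 DAH and 4.77, 0.228, and 0.621 CPM at 44 DAH. Every early library of this gene was above every late one in both leaves, and its replicates spread widely within a day. OS01G0238500 scored 2.47, with FL replicates of 197, 220, and 225 CPM at 4 DAH and 3.12, 5.70, and 4.24 CPM at 44 DAH. OS11G0285000 scored 2.42, with means at 4 DAH of 19.6 CPM in FL and 20.8 CPM in SL and means at 44 DAH of 0.164 and 0.158 CPM. The other genes of the 15 highest scores ranged from 1.52 in OS02G0589000 to 2.16 in OS04G0683850, and included OS12G0583300, OS04G0526800, OS08G0489300, OS08G0470700, OS09G0275400, and OS08G0139700, all without a description.

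The described genes among the 15 were an aldehyde dehydrogenase, an EF-hand protein, KSL5, and the D-type cyclin CYCD4-2. OS02G0646500, described as an aldehyde dehydrogenase, an enzyme class that oxidizes aldehydes to acids, was 34.7, 42.0, and 43.8 CPM in FL at 4 DAH and 1.65, 2.22, and 1.86 CPM at 44 DAH. OS02G0158100, with an EF hand, a calcium-binding domain, was 5.19 CPM in FL and 6.12 CPM in SL at 4 DAH and 0.352 and 0.606 CPM at 44 DAH. D-type cyclins bind cyclin-dependent kinases at the entry into the cell cycle. OS08G0479300 (CYCD4-2) was 17.5, 16.4, and 16.5 CPM in FL at 4 DAH, 2.59, 3.19, and 2.66 CPM at 20 DAH, and 1.47, 0.791, and 1.36 CPM at 44 DAH. In SL it was 7.94, 12.7, and 8.60 CPM at 4 DAH and 1.90, 3.01, and 1.38 CPM at 20 DAH. Its 20 DAH values were below all early values in both leaves. Of the 10 D-type cyclins named in the reference table it was the only one among the 150, and the scores of the other 9 ranged from -1.34 in CYCD2-1 to 0.0589 in CYCD3-1.

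**Figure D2:**
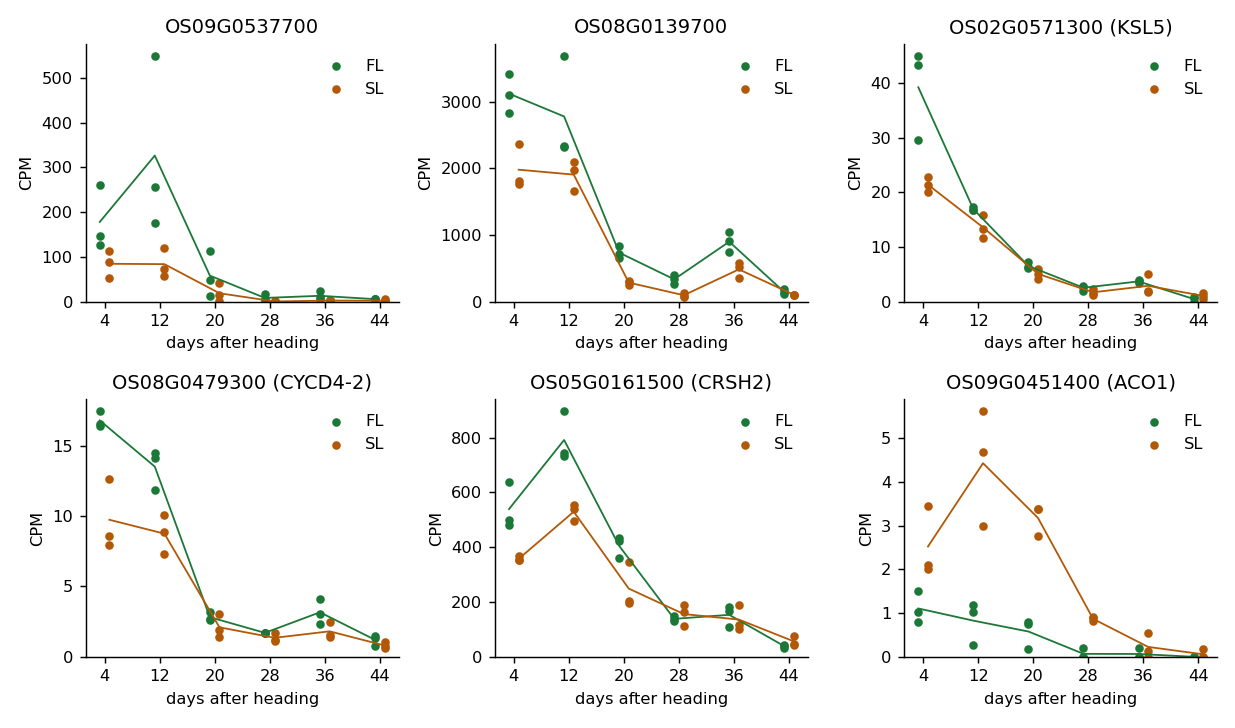
CPM of 6 of the 150 genes in each of the 36 libraries by days after heading, on a linear axis from 0, with FL in green and SL in brown (points are libraries, lines join the means of 3 replicates). KSL5 and CYCD4-2 are low from 28 DAH on in both leaves, as the rule that chose them requires. ACO1 is higher in SL than in FL at 20 DAH, with no overlap.

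Genes of diterpenoid synthesis were among the described genes. Of 14 genes described with words of isoprenoid, sterol, or pigment synthesis, 4 were among the 150: CPS2, CYP701A8, a 1-deoxy-D-xylulose 5-phosphate synthase (DXPS), and CDPMEK. Of all 1636 described genes 2.81% were among the 150. The descriptions came from a shortened copy of the authors' list of genes that changed over the days, so this background is not neutral. The words were written after the descriptions of high-scoring genes had been read, so this count carries no test. The names in the reference table added KSL5 and CYP71Z6. OS02G0571100 (CPS2), which forms ent-copalyl diphosphate, was 251, 247, and 247 CPM in FL at 4 DAH, 73.2, 83.6, and 72.5 CPM at 20 DAH, and 20.5, 37.5, and 30.5 CPM at 44 DAH. In SL it was 170, 173, and 162 CPM, 70.8, 82.5, and 76.8 CPM, and 30.8, 47.2, and 40.1 CPM at the same days. The replicates of the leaves did not overlap at 4 DAH and overlapped at 20 DAH.

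OS02G0571300 (KSL5), a diterpene synthase acting after CPS2, was 29.5, 44.9, and 43.3 CPM in FL at 4 DAH, 6.10, 7.18, and 6.26 CPM at 20 DAH, and 0.589, 0, and 0.848 CPM at 44 DAH. In SL it was 20.1, 22.8, and 21.3 CPM, 5.11, 6.01, and 4.07 CPM, and 1.02, 0.533, and 1.55 CPM at the same days. OS02G0570500 (CYP71Z6), a P450, was 49.3 CPM in FL and 33.9 CPM in SL at 4 DAH and 12.8 and 18.2 CPM at 44 DAH. OS06G0569500 (CYP701A8), described as similar to ent-kaurene oxidase, was 173 and 116 CPM at 4 DAH and 33.04 and 33.1 CPM at 44 DAH.

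In the MEP pathway, OS07G0190000 (DXPS), the first enzyme of the route, was 256 CPM in FL and 184 CPM in SL at 4 DAH and 43.6 and 59.8 CPM at 44 DAH. OS01G0802100 (CDPMEK), the kinase step, was 46.9 and 33.8 CPM at 4 DAH and 12.8 and 12.1 CPM at 44 DAH. The pathway did not share this pattern as a whole. Of its 7 genes found by name, these 2 had scores above 0, and DXR, ISPG, ISPH, ISPF, and the other DXPS gene, OS05G0408900, had scores of -0.0594, -0.0669, -0.25, -0.60, and -0.54. ISPH was 2039 CPM in FL at 4 DAH, 951 CPM at 28 DAH, 1989 CPM at 36 DAH, and 849 CPM at 44 DAH. OS05G0408900 was 301 CPM in FL and 140 CPM in SL at 4 DAH and 64.1 and 52.4 CPM at 44 DAH. A score below 0 thus did not exclude a lower level at 44 DAH than at 4 DAH.

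The broader diterpenoid list, drawn up after the values were seen from names of CPS, KSL, and P450 genes, held 23 genes. Of these, 4 were among the 150 and 10 had scores above 0. CYP76M8, CYP76M5, CYP99A3, CPS1, and KSL6 were the highest of those not kept, at 0.58, 0.50, 0.38, 0.26, and 0.20. KSL10 and KSL7 were at the other end, with scores of -3.16 and -2.37. KSL10 was 0.662, 1.06, and 2.40 CPM in SL at 4 DAH and 8.35, 18.7, and 17.2 CPM at 44 DAH. In FL it was 7.44, 0.397, and 1.11 CPM at 4 DAH and 1.002, 31.8, and 20.2 CPM at 44 DAH, so the FL replicates overlapped. The scores of the list thus lay on both sides of 0. Enzymes of these families are similar in sequence, and reads shared between copies may be lost in the counting or counted for another copy.

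**Figure D3:**
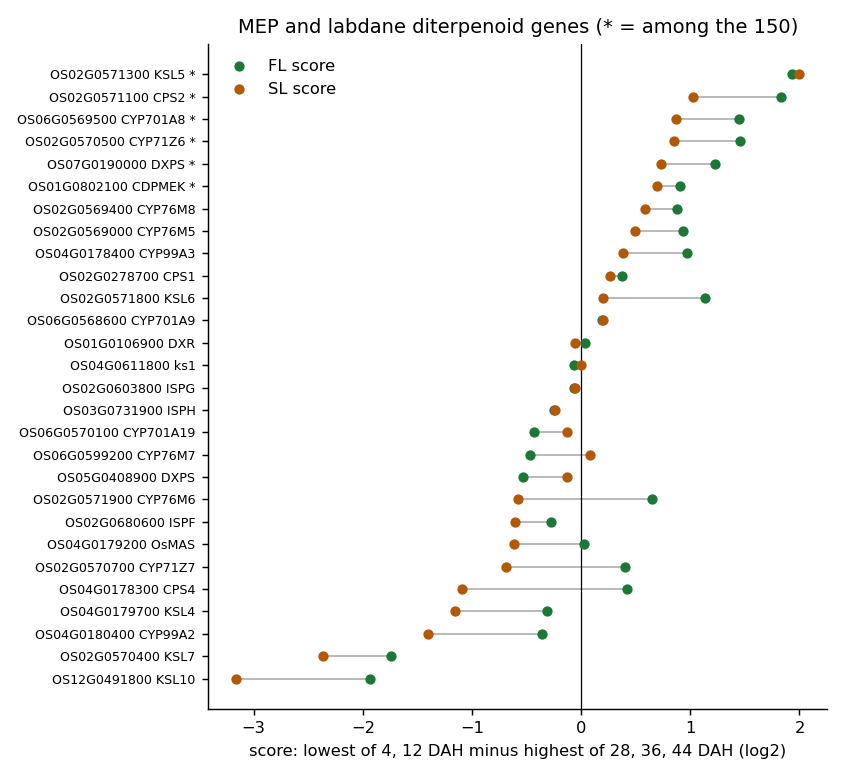
Scores of each leaf (green FL, brown SL, in log2 units) for the MEP and diterpenoid genes with 100 or more reads in all libraries together, ordered by the smaller score, with an asterisk for the genes among the 150. The 6 genes with asterisks lie at 0.70 or above in both leaves, and KSL10 and KSL7 lie at -1.74 or below in both.

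CYP71Z6, CPS2, and KSL5 lie within 5 consecutive genes of chromosome 2 in the gene order of the reference table. OS02G0570900, which the reference table did not match, has an identifier between theirs and was also among the 150, at 99.0 CPM in FL and 60.6 CPM in SL at 4 DAH and 9.01 and 8.62 CPM at 44 DAH. Within the same stretch CYP71Z7 scored -0.69, and KSL7, the next gene before CYP71Z6, scored -2.37, so genes beside each other did not all share the pattern. Allowing up to 10 steps along the gene order between them, 21 of the 132 placed genes fell into 10 such runs. One was the pair of Bowman-Birk inhibitor genes OS01G0123900 and OS01G0124000, which encode small serine protease inhibitors. The former was 26.2 CPM in FL and 26.6 CPM in SL at 4 DAH and 4.01 and 5.15 CPM at 44 DAH, and the latter 7.46 and 4.89 CPM and 0.0921 and 0.0518 CPM. Another pair was OS07G0663700 and OS07G0663800, the latter described as a short-chain dehydrogenase/reductase, at 11.8 CPM in FL and 15.2 CPM in SL at 4 DAH and 0.804 and 0.996 CPM at 44 DAH. Neighbouring copies may share reads.

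Enzymes of other pathways were also found. OS07G0503500, of the UDP-glucosyltransferase family, which adds sugars to small molecules, was 13.3 CPM in FL and 11.9 CPM in SL at 4 DAH and 2.16 and 3.18 CPM at 44 DAH. OS01G0544200, described as a P450, was 38.9 and 35.7 CPM at 4 DAH and 4.40 and 5.16 CPM at 44 DAH. OS02G0194700, described as a chloroplast lipoxygenase, an enzyme class that oxidizes polyunsaturated fatty acids, was 499 CPM in FL and 328 CPM in SL at 4 DAH and 24.5 and 37.4 CPM at 44 DAH. OS05G0548900, similar to phosphoethanolamine methyltransferase, an enzyme of choline synthesis, was 83.1 and 75.9 CPM and 8.99 and 11.2 CPM at the same days.

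Cell wall and cytoskeleton genes included an expansin-like gene and a beta-tubulin. OS07G0475400 (EXLA3) was 13.8 CPM in FL and 7.48 CPM in SL at 4 DAH and 1.22 and 1.11 CPM at 44 DAH. It was 1 of 46 expansin and expansin-like genes named in the table, of which only 5 passed the filter on low values. Of these, EXLA4, EXLA1, EXLB1, and EXPA10 had scores of -0.55, -1.12, -1.13, and -2.29. OS05G0413200 (TUB6), a subunit of microtubules, was 413, 383, and 397 CPM in FL at 4 DAH, 93.5, 90.5, and 66.5 CPM at 12 DAH, and 28.9, 33.2, and 26.4 CPM at 20 DAH. In SL it was 196, 204, and 213 CPM, 80.3, 58.1, and 68.0 CPM, and 30.02, 33.5, and 27.5 CPM. The other 7 beta-tubulin genes had scores from -1.74 in TUB2 to 0.0285 in TUB8. OS05G0375400, described as a beta-glucanase, a class that cleaves wall glucans, was 49.4 and 52.3 CPM at 4 DAH and 0.986 and 0.488 CPM at 44 DAH.

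Regulators were also found. OS05G0161500 (CRSH2), a plastid enzyme of the RelA/SpoT family, which handles the alarmone ppGpp, was highest at 12 DAH, at 897, 743, and 734 CPM in FL and 555, 496, and 538 CPM in SL. At 44 DAH it was 37.8, 44.8, and 33.7 CPM in FL and 47.7, 76.9, and 43.8 CPM in SL. Its neighbour in name CRSH1 scored 0.16, and RSH1 scored -1.06. OS05G0579300 (ZHD6), a zinc finger homeodomain protein, was 17.8 CPM in FL and 9.46 CPM in SL at 4 DAH and 2.36 and 1.91 CPM at 44 DAH. Of the 8 genes named ZHD, only ZHD6 had a score above 0. OS08G0136100 (Roc7), of the HD-ZIP IV transcription factors, was 16.98 and 12.2 CPM at 4 DAH and 6.11 and 6.04 CPM at 44 DAH. Of the 8 genes named Roc, 3 had scores above 0, and Roc4 scored -2.14. OS02G0149900, described as HOX26, was near 3 CPM at 4 DAH, at 3.70 and 3.03 CPM. Of 90 genes described as kinases or receptors, 3 were kept, with scores of 1.11 in OS06G0557700, 0.78 in OS07G0603800, and 0.78 in the leucine-rich repeat gene OS08G0247600. None of the 18 genes described as photosystem or antenna proteins, none of 60 transport genes, and none of 35 described as cell division or cytoskeleton genes were among the 150, while CYCD4-2 and TUB6 are known here by name alone. These descriptions cover only 1636 genes. They came from a shortened copy of the authors' list of genes whose expression changed over the days in these libraries. The counts are thus not shares of the genome, and the background is a set already selected for change. Of all described genes 2.81% were among the 150, and at that share counts of 0 to 3 in groups of this size are close to the background.

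By level, the 5 highest genes at 4 DAH were OS08G0139700, OS01G0639900, OS09G0355400, OS08G0247600, and OS07G0691200. OS08G0139700 was 3422, 3103, and 2837 CPM in FL at 4 DAH. Its late FL values were 262, 335, and 404 CPM at 28 DAH, 750, 1042, and 903 CPM at 36 DAH, and 183, 137, and 107 CPM on the last day. In SL it was 1759, 2367, and 1811 CPM at 4 DAH, and 70.8, 127, and 87.7 CPM, 353, 575, and 522 CPM, and 103, 97.4, and 104 CPM on the 3 late days in turn. All 3 libraries at 36 DAH were above all 6 at 28 and 44 DAH in each leaf. OS01G0639900 was 2696, 2025, and 1841 CPM in FL at 4 DAH and 550, 695, and 522 CPM at 44 DAH.

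The 20 DAH libraries, which the rule did not use, lay between the early and the late days for most genes. In FL 109 genes, and in SL 104, had a 20 DAH mean below both early means and above all 3 late means. The fall present at 20 DAH was the drop from the mean of 4 and 12 DAH to 20 DAH as a percent of the drop to the mean of 28, 36, and 44 DAH, in log2 units. Its median was 55.6% in FL, with quartiles of 41.6% and 71.9%, and 65.6% in SL, with quartiles of 50.9% and 82.4%. The SL value was the larger in 96 of the 150 genes. The early and late means come from libraries used by the rule, so these percentages have no test.

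Single genes stood at either end. OS10G0389800 was nearest its early level, at -7.67% of the fall in FL and 4.32% in SL, with FL replicates of 5.36, 5.08, and 4.46 CPM at 20 DAH against 3.00, 4.88, and 4.90 CPM at 4 DAH and 0.707, 1.02, and 1.84 CPM at 28 DAH. OS11G0489250 and OS12G0231000 were the next nearest to their early levels, at 5.63% and 6.61% of the fall averaged over the leaves. OS01G0880200, OS04G0400000, and OS02G0554100, the last described as similar to the UV-B receptor UVR8, were nearest to their late levels, at 98.2%, 96.7%, and 96.3%. OS02G0554100 was 10.8, 9.504, and 7.97 CPM in FL at 20 DAH, 19.3, 22.6, and 22.7 CPM at 36 DAH, and 6.48, 7.28, and 5.76 CPM at 44 DAH.

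**Figure D4:**
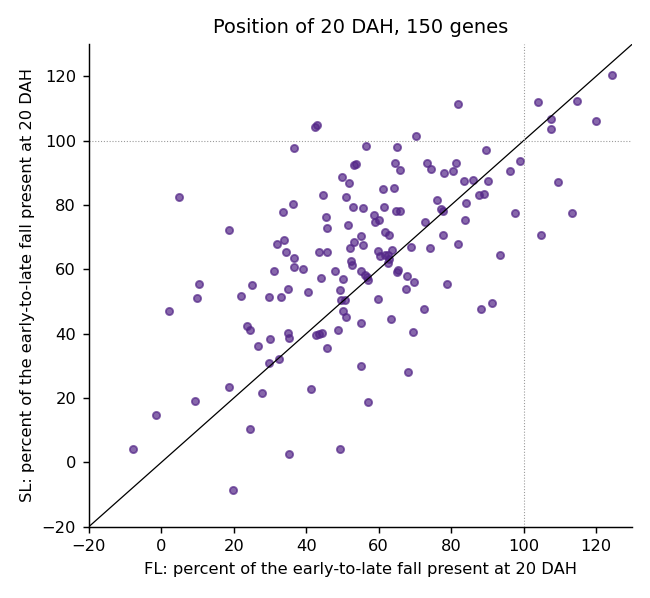
Percent of the early-to-late fall present at 20 DAH in FL (horizontal) and SL (vertical) for the 150 genes, with the line of equal values and dotted lines at 100%. Of the points, 96 lie above the line of equal values.

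Whether the leaves differed was tested with limma on quantile-normalized log2(CPM + 1) over all 36 libraries, with Benjamini-Hochberg adjustment over 22057 genes and a threshold of 0.05. All 150 genes passed the filter on low values, which the early libraries alone could satisfy. At 20 DAH 59 of the 150 genes differed between FL and SL, against 30.4% of all genes tested. FL was higher in 52 (34.7% of the 150, against 15.2% of all genes) and SL in 7 (4.67%, against 15.2% of all genes). Without SL replicate 3 of 20 DAH, 36 of the 150 genes were called (29 higher in FL, 7 in SL). In that setting 5034 of all 22057 genes were called (2560 higher in FL, 2474 in SL). The median difference of the 150 genes was 0.37 on the log2 scale, and that of all genes was -0.02. These p-values measure the spread between pools.

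The largest differences in favour of FL at 20 DAH were in 4 genes without a description. OS09G0275400 was 289, 507, and 191 CPM in FL and 94.8, 88.6, and 14.3 CPM in SL, a log2 difference of 2.62 with a standard error of 0.54 (limma adjusted p = 0.000659). OS02G0589000 was 3.37, 9.94, and 2.66 CPM in FL and 0.330, 0.563, and 0.0690 CPM in SL (2.09 ± 0.38, limma adjusted p = 0.000202). Its SL values rest on 4, 6, and 1 reads, and the difference was 3.67 with a pseudocount of 0.1 and 4.11 with edgeR, since a pseudocount of 1 compresses differences at low levels. OS06G0607100 (1.86 ± 0.36) and OS07G0288700 (1.68 ± 0.25) had limma adjusted p-values of 0.000302 and 1.41e-05. The groups did not overlap in any of these 4 genes. OS09G0537700, the gene with the highest score, had a difference of 2.07 ± 0.84 with overlapping replicates, 48.6, 113, and 12.2 CPM in FL and 14.1, 41.2, and 0.552 CPM in SL, and did not pass (limma adjusted p = 0.0631).

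SL was the higher leaf at 20 DAH in a few genes. OS03G0347900 was 0.0355, 0.218, and 0.379 CPM in FL and 1.32, 2.72, and 3.86 CPM in SL (-1.61 ± 0.28, limma adjusted p = 9.97e-05). OS09G0451400 (ACO1), named as an ethylene-forming ACC oxidase, was 0.177, 0.798, and 0.759 CPM in FL and 3.38, 3.38, and 2.76 CPM in SL (-1.52 ± 0.19, limma adjusted p = 1.73e-06). OS05G0462000 was 11.1, 10.96, and 12.3 CPM in FL and 23.3, 26.9, and 25.8 CPM in SL (-1.12 ± 0.19, limma adjusted p = 0.0001). OS03G0850400 had the smallest of these 4 differences, -0.75 ± 0.23 (limma adjusted p = 0.0155), and did not pass without FL replicate 1 or 3 or SL replicate 1 at 20 DAH. The FL values of OS03G0347900 at 20 DAH rest on 1, 3, and 4 reads and those of ACO1 on 5, 11, and 8 reads. With a pseudocount of 0.1 the difference was -3.48 in OS03G0347900 and -2.63 in ACO1, and with edgeR it was -3.95 and -2.58. ACO1 was at 0 in all 3 FL libraries of 44 DAH.

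Among the named genes, the difference at 20 DAH was 0.80 in CRSH2 (limma adjusted p = 0.00886), 0.71 in ZHD6 (0.00449), 0.68 in Roc7 (0.00975), 0.50 in CYP71Z6 (0.00528), and 0.50 in the lipoxygenase OS02G0194700 (0.0187), all with FL higher. Only in the lipoxygenase gene, of these 5, did the replicates of the leaves overlap, while 28.2% of all genes tested had every FL value above every SL value. It was 0.26 in KSL5, -0.02 in CPS2, 0.21 in CYP701A8, -0.07 in the kept DXPS gene, 0.04 in CDPMEK, 0.27 in CYCD4-2, and -0.07 in TUB6, and none of these passed, with limma adjusted p-values from 0.209 to 0.932. Of the 21 diterpenoid genes tested, FL was higher in 2 and SL in 2 at 20 DAH, against 15.2% of all genes each way, and FL in 4 and SL in 5 on average, against 22.4% and 26.4% of all genes.

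Averaged over the 6 time points, 88 of the 150 genes differed between the leaves, against 48.8% of all genes. FL was higher in 79 (52.7%, against 22.4% of all genes) and SL in 9 (6%, against 26.4% of all genes), with a median difference of 0.22, and 46 of the 150 genes had a higher FL mean on all 6 days, against 11.5% of all genes, and 4 a higher SL mean, against 12.1% of all genes. The rule used the libraries of 5 of these days, though not this contrast. The median FL minus SL difference of the day means, without quantile normalization, was 0.50, 0.39, 0.42, 0.12, 0.23, and 0 from the first day to the last. At 44 DAH FL had the higher mean in 73 of the 150 genes, so the genes went both ways. FL was highest above SL in OS09G0537700 (1.77 ± 0.34, limma adjusted p = 0.000111), OS09G0275400 (1.56 ± 0.22), OS02G0589000 (1.37 ± 0.16), and OS07G0288700 (1.34 ± 0.10). SL was highest above FL in OS03G0347900 (-1.005 ± 0.114), ACO1 (-0.82 ± 0.08), OS05G0462000 (-0.56 ± 0.08), and OS01G0382400 (-0.49, limma adjusted p = 0.0113). Under edgeR's quasi-likelihood test OS02G0589000 and OS01G0382400 were not called, and OS01G0382400 was not called without replicate 2. With a pseudocount of 0.1 the average was -1.89 in OS03G0347900, -1.73 in ACO1, -1.07 in OS01G0382400, and 2.12 in OS02G0589000, and with edgeR it was -2.38, -2.44, -1.28, and 2.24.

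**Figure D5:**
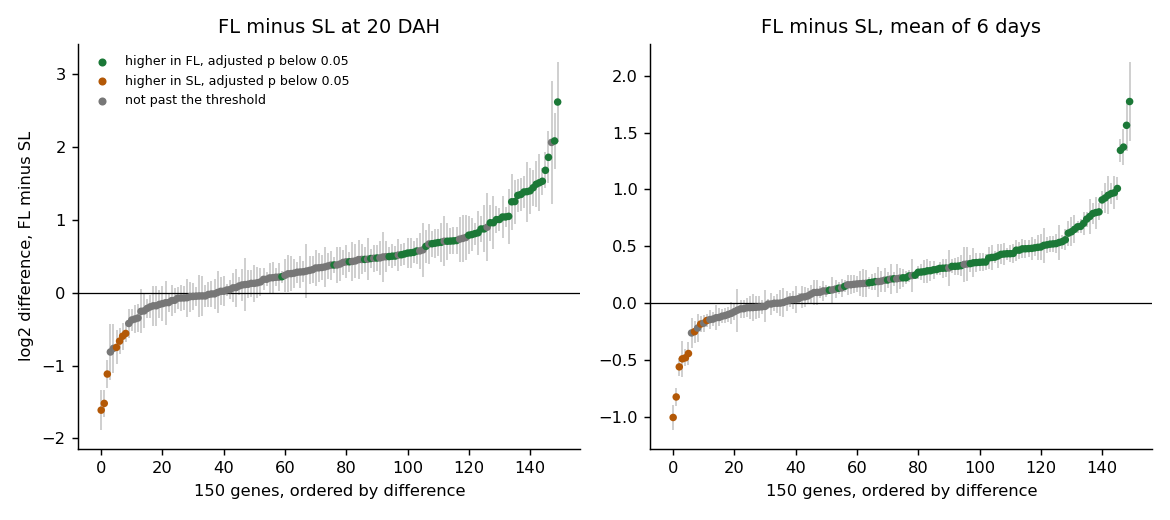
FL minus SL log2 differences of the 150 genes at 20 DAH (left) and averaged over the 6 time points (right), each panel in order of size, with bars for 1 standard error and colours for genes past an adjusted p of 0.05. On the left 52 genes are higher in FL and 7 in SL, and on the right 79 and 9.

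The difference at 20 DAH was also set against the mean difference of the other 5 days. It departed in 4 of the 150 genes, a share of 2.67% against 3.65% of all genes, with 2 more towards FL (2.29% of all genes) and 2 more towards SL (1.35% of all genes). The share was below the background. The rule used the libraries of the other 5 days. Leaving out any single library of 20 DAH gave 1 or 2 calls, against 22 to 291 among all 22057 genes. With edgeR or DESeq2, 2 of the 4 genes were not called.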

How the data were processed

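The authors trimmed reads with cutadapt 1.2.1, aligned them to IRGSP-1.0 with TopHat2 2.0.10, which could keep several alignments of a read, counted them on genes with HTSeq 0.6.1, and scaled them with TMM in edgeR. The deposited values are a linear signal, CPM on scaled library sizes. All values came out as whole reads within 0.01 reads after division by the step of their column (100%). Columns summed to 918740 to 1146100, and 4963 genes had no read.

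The members and lists were chosen with earlier results of these data known. The descriptions of the genes that scored high were read before the word lists were written, and the named gene families were drawn up after the values were seen. The cell type markers were matched by name in the reference table, and no pollen marker was found. Named were the 15 highest scores, up to 4 genes per described group with 3 or more members, the 4 largest called differences each way, the 3 genes on each side of the boundary, the 3 nearest the early and late level at 20 DAH, and the 5 highest levels. Other genes, such as those with a name or a neighbour among the 150, were chosen after their values were seen.

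limma 3.58.1 with a mean-variance trend was fitted to quantile-normalized log2(CPM + 1) in 12 groups, after a filter for log2 values of 1 or higher in any 3 libraries, in R 4.3.3. Alternatives were edgeR 4.0.16 and DESeq2 1.42.0 on the recovered reads, other pseudocounts, filters, and scalings, a replicate block, and left-out libraries. The fits were tested on simulated data. No sequence was used here, so the planned search of promoters was not run.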

Additional observations from a re-analysis of the deposited data

Results flagged for a closer look

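In 4 of the 150 genes the FL minus SL difference at 20 DAH departed from the mean difference of the other 5 days by a test of that departure (limma, adjusted over all 22057 genes). That was 2.67% of the 150 genes, below the 3.65% of all genes. The libraries of the other 5 days were used by the rule that chose the 150. In OS01G0880200 the departure was -0.72 on the log2 scale (adjusted p = 0.00556). Its replicates at 20 DAH were 11.6, 10.9, and 11.2 CPM in FL and 15.1, 18.1, and 16.7 CPM in SL, while at 4 DAH they were 94.0, 102, and 82.6 CPM in FL and 51.8, 48.5, and 38.4 CPM in SL. FL was thus the higher leaf at 4 DAH and SL at 20 DAH, and SL was also the higher leaf at 28 DAH, at 15.8, 15.96, and 15.02 CPM against 8.88, 9.05, and 9.38 CPM in FL. In OS09G0451400 (ACO1) it was -0.83 (adjusted p = 0.0273), with 0.177, 0.798, and 0.759 CPM in FL and 3.38, 3.38, and 2.76 CPM in SL at 20 DAH. In OS01G0660200 it was 0.99 (adjusted p = 0.0286), with 45.7, 36.9, and 25.98 CPM in FL and 18.8, 12.4, and 8.55 CPM in SL at 20 DAH. In OS08G0139700 it was 0.75 (adjusted p = 0.0394), with 713, 830, and 661 CPM in FL and 300.1, 308, and 246 CPM in SL on that day. With edgeR, with DESeq2, and without quantile normalization, OS01G0880200 and OS01G0660200 were still called and ACO1 and OS08G0139700 were not. For ACO1 the departure was -0.17 with edgeR (adjusted p = 0.858) and -0.40 with DESeq2 (adjusted p = 0.764), and for OS08G0139700 it was 0.49 (adjusted p = 0.198) and 0.48 (adjusted p = 0.167). No departure was called without replicate 1, 2, or 3 of all groups.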

How the results depend on the processing

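Depth limits the late levels of genes with few reads. The 150 genes changed most with a pseudocount of 0.1, which kept 104 of them. Quantile normalization kept 141, medians 127, and a filter of 10 reads 150, and leaving out a replicate number kept 120 to 124. All 15 highest genes stayed among the 150 under each of these. At 20 DAH the 59 calls became 32 to 39 when a replicate number was left out and 36 without SL replicate 3 of 20 DAH, the single library with the largest effect (36 to 56 over the 6 libraries, added after the data were seen). Of all 22057 genes, 3391 to 4725 were called without a replicate number and 5014 to 5624 without a single 20 DAH library. The main fit called 6709 of them. edgeR's test on the recovered reads called 67 of the 150 and 6715 of all genes. The other settings gave 48 to 73, and FL stayed the leaf with more calls in all. Those settings called 6370 to 10013 of all genes tested (33063 genes without the filter, 22057 otherwise). The average over days gave 75 to 96 calls, against 7360 to 11378 among all genes tested. The departure of 20 DAH, called in 4 genes, was called in 9 with DESeq2 and 6 with edgeR, each including 2 of the 4, in 0 when any replicate number was left out, and in 1 to 2 when a single 20 DAH library was. DESeq2 called it in 1965 of all 22057 genes and edgeR in 1075, against 804 in the main fit. It was called in 0 to 8 of all genes without a replicate number and in 22 to 291 without a single 20 DAH library. Replicate numbers were not taken as pairs in the main fit, as the sources do not say whether same-numbered libraries share plants. Of the 18 same-numbered FL and SL pairs, 11 had a deviation correlation over 0.1 (-0.12 to 0.60). For 10 FL libraries the SL library of the same number was the best match. Whether replicate numbers share structure was not tested. With the replicate block, 69 genes were called at 20 DAH, 96 on average, and 8 for the departure. Of all 22057 genes it called 7288, 11378, and 1037 in turn. The 4 largest called differences each way, at 20 DAH and on average, gave 16 results of named genes. Of 200 alternatives for these, 192 kept the call, 8 lost it, and 0 reversed. They were picked by size among the calls of the main fit, so this count does not stand for all 59 calls. The causes of these changes were not tested.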
